A study of Mus musculus with 4 samples.

Results

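The BCL2 family holds the genes that set whether a cell's mitochondria start apoptosis. Described here are 10 of the 32285 annotated mouse features, taken by name: the pro-survival members Bcl2, Bcl2l1, Mcl1, Bcl2a1b and Bcl2a1d, the BH3-only pro-apoptotic members Bcl2l11, Bbc3, Pmaip1 and Bid, and the pore-forming effector Bax. They were chosen by name and role, not by a measured value. Spleens came from 10-week-old mice given 9 µg of recombinant murine TNF, or PBS, intravenously in 100 µl, and were taken 4 h later. The 4 groups were mice labelled TRIF-KO on a C57BL/6 background with TNF, mice labelled TRIF-KO with PBS, wild-type B6 mice with TNF and wild-type B6 mice with PBS. TRIF, encoded by Ticam1, is the adaptor through which TLR3 and TLR4 induce type I interferon and certain inflammatory genes. The stated question was how TRIF deficiency alters the cellular response of the spleen to injected TNF. Spleens were dispersed, red cells were lysed, dead cells were removed on magnetic columns, and the remaining cells were sequenced as 10x Genomics single-cell libraries. Removal of dead cells means that cells which had already died by 4 h were not measured.

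Each group was 1 library, and the sources used here do not give the number of mice in each. There is therefore no spread between animals, and no test or p-value is given. Every interval below is a 95% interval for counting error only. A class, a cell type named from a list of marker genes, was compared where it held at least 50 cells in each of the 4 libraries, which left 8 classes. A level is given in CPM, UMIs (counted RNA molecules) per 1000000 UMIs of that class in that library. A gene was measured in a class where it had at least 40 UMIs over the 4 libraries. It was called where a ratio was at least 2-fold and its exact interval excluded 1. The difference between the TNF responses is the log2 TNF-to-PBS ratio in the labelled TRIF-KO libraries minus that in the wild-type libraries, called from 1 upwards in size with an interval excluding 0. Fewer expressing cells and less RNA per cell give the same sum within a class.

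The labelled TRIF-KO TNF library held 6662 cells after filtering and 59488621 UMIs, the labelled TRIF-KO PBS library 5403 cells and 29666632 UMIs, the wild-type TNF library 5033 cells and 30389300 UMIs, and the wild-type PBS library 2452 cells and 22445549 UMIs. Ticam1 stood at 5.70 and 8.36 CPM over all cells of the TNF and PBS libraries labelled TRIF-KO, against 3.72 and 6.86 CPM in the wild-type TNF and PBS libraries. It was thus not lower where the label says knockout. These UMIs come from 1 end of the transcript and check the label only if the allele removes that end, and the labels do not give the allele, so the groups are called by their label throughout. Libraries shared between 3 and 15 cell barcodes in each pairing. Every marker that the annotation holds (Ahsp, on the erythroid list, is not in it) had at least 1 UMI in its own class in every library. The summed cDC markers, which define the conventional dendritic cell class, stood at 506, 1301, 418 and 1739 CPM in the labelled TRIF-KO TNF, labelled TRIF-KO PBS, wild-type TNF and wild-type PBS libraries, so this class was less sharply marked after TNF. A stricter gate on each cell's own markers left 0 cDC-like cells in both TNF libraries, against 11 and 8 in the labelled TRIF-KO and wild-type PBS libraries, so the cDC-like values rest on clusters. Summed monocyte markers in monocyte-like cells were also lower after TNF, at 4035, 7199, 3071 and 8541 CPM in the order of libraries given above. Macrophage markers in this class stood at 366, 199, 681 and 38.7 CPM. The gate kept 21 of 91 monocyte-like cells with TNF and 86 of 111 with PBS in the labelled TRIF-KO libraries. In wild type the gate kept 9 of 56 with TNF and 59 of 81 with PBS. Cells of the TNF and PBS libraries lay mainly in different clusters for the B-like, neutrophil-like and monocyte-like classes. Whether the TNF and PBS values of these classes come from like cells was not tested. Neutrophil-like cluster 12, led by Ngp, Camp and Lcn2, held 351 labelled TRIF-KO and 83 wild-type cells with TNF, against 4 and 5 with PBS. Neutrophil-like cluster 21, led by Csf3r and Cxcr2, held 0 cells of either TNF library, against 96 and 161 with PBS. Among T-like cells the TNF libraries differed from each other: CD4 T-like cluster 3 held 395 labelled TRIF-KO cells and 37 wild-type cells with TNF, and T-like cluster 8, without a finer name, held 237 and 414.

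BCL2, BCL-XL (the product of Bcl2l1), MCL1 and A1 (the product of the Bcl2a1 genes) hold the effectors BAX and BAK in check on the outer mitochondrial membrane. BH3-only proteins respond to stress, cytokine loss or death receptors: they occupy the groove of the pro-survival proteins, and some engage the effectors directly. Once BAX and BAK form pores, cytochrome c leaves the mitochondrion and caspases are activated. Lymphocytes depend largely on BCL2 and MCL1, neutrophils on MCL1 and A1, and late red cell precursors on BCL-XL. A1 is a well-known target of NF-kB, the factor that TNF receptor signalling activates. BIM (Bcl2l11) limits lymphocyte and myeloid cell numbers, PUMA (Bbc3) and NOXA (Pmaip1) are p53 targets, and BID couples death receptors to mitochondria through caspase-8.

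On mouse build GRCm38, Bcl2 lies at chr1:106538178-106714274, Bcl2l1 at chr2:152780668-152831728 and Mcl1 at chr3:95658788-95663176. Bcl2l11 lies at chr2:128126038-128162547, Bbc3 at chr7:16308393-16318205, Bid at chr6:120891930-120916853 and Bax at chr7:45461697-45466898. The A1 copies lie on chromosome 9, Bcl2a1b at chr9:89199209-89207827 and Bcl2a1d at chr9:88723285-88731914, and the further copy Bcl2a1a at chr9:88956900-88962419. Bcl2a1b (ENSMUSG00000089929) and Bcl2a1d (ENSMUSG00000099974) turned out to carry the largest responses, and Bcl2l11 (ENSMUSG00000027381) responded in the most classes among the pro-apoptotic genes, so the promoters of these 3 genes are shown. The sequences are RefSeq's on GRCm38.p6, 5′ to 3′ on each gene's strand. In the A1 pair the capitals mark the bases that differ between the copies in a local alignment. In Bcl2l11 the capitals mark GTAAACA, the core letters bound by FOXO factors, in a window that spans 250 bases before to 50 bases after the start site.
Bcl2a1b, chr9:89199023-89199278, plus strand: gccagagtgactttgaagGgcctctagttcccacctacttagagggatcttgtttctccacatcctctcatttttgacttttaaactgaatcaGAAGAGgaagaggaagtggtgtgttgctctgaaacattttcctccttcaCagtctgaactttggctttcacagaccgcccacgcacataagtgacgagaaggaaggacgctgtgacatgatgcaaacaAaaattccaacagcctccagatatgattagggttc
Bcl2a1d, chr9:88731801-88732050, minus strand: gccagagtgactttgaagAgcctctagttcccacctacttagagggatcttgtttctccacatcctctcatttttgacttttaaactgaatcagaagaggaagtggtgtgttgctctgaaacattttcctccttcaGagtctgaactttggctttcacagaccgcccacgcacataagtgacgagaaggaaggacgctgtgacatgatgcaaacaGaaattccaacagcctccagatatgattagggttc
Bcl2l11, chr2:128125788-128126087, plus strand: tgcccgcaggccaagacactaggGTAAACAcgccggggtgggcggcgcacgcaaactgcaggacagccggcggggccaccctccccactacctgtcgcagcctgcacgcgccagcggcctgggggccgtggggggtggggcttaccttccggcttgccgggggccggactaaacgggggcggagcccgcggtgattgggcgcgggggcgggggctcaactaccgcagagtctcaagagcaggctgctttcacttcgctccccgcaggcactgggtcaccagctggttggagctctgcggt
The aligned A1 promoters span 256 columns, of which 96.5% were identical, with 3 mismatches and 6 gap columns. The Bcl2a1a and Bcl2a1b promoters were identical in 99.2% of 256 columns. GTAAACA, searched on both strands, was held by 3.65% of all 32851 RefSeq promoter windows of this length. The window of a further Bcl2l11 start site, chr2:128127325-128127624, is not shown and held no GTAAACA. Among the other members searched, a window of Bbc3 also held it. The kappaB consensus, also searched on both strands, was held by 8.46% of the promoters, and it was not found in these windows of Bcl2a1a, Bcl2a1b or Bcl2a1d. It was found in a window of Bcl2l1 and in a window of Bbc3, which are not shown. Both motifs were chosen after the values were seen, and the matches describe letters in these windows and nothing of binding.

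The A1 transcripts are also near-identical, which bears on how their reads could be assigned. Of all stretches of 91 bases in the longest annotated transcript, 61.1% in Bcl2a1b and 61.1% in Bcl2a1d also occurred in a transcript of another gene, mainly Bcl2a1a, each other and Gm29094. Over the last 400 bases, nearest to where the UMIs are read, the shares were 54.5% and 60.3%. The split of A1 reads between copies is therefore uncertain. Of the other members only Bax shared any such stretch (10.3%, with Gm45808), and none of it lay in its last 400 bases. The read length was not given in the sources used here.

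With 10 genes and 8 classes there were 80 gene-class pairs, of which 67 were measured. The 13 others, too low to compare, were Bcl2 in macrophage-like and neutrophil-like cells, Bcl2l1 in cDC-like and monocyte-like cells, Bcl2a1d in NK-like and erythroid-like cells, Bcl2l11, Bbc3, Pmaip1 and Bid in macrophage-like cells, Pmaip1 in NK-like and erythroid-like cells, and Bid in erythroid-like cells. A measured pair may have passed only through the library in which it was high, so the counts below describe the measured pairs and not all 80.

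After TNF, 17 of 67 pairs were called higher and 5 lower in the labelled TRIF-KO libraries, where 5.11% and 7.11% of all 58504 measured gene-class pairs were called higher and lower. In wild type, 19 of 67 were called higher and 3 lower, where 4.97% and 11.7% of all pairs were called in those directions. The higher calls divided unevenly by role. Of 34 pro-survival pairs, 12 were called higher and 1 lower in the labelled TRIF-KO libraries, against 11 higher and 0 lower in wild type. Of 33 pro-apoptotic pairs, 5 were called higher and 4 lower in the labelled TRIF-KO libraries, against 8 higher and 3 lower in wild type. The median log2 ratio over the 67 pairs was 0.24 in the labelled TRIF-KO libraries and 0.30 in wild type. The median log2 ratio over all measured genes ranged by class and comparison between -0.55 and 0.25, and this shift is part of every log2 ratio below. For the difference between the TNF responses the median ranged by class between -0.10 (neutrophil-like) and 0.53 (macrophage-like).

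**Figure D1:**
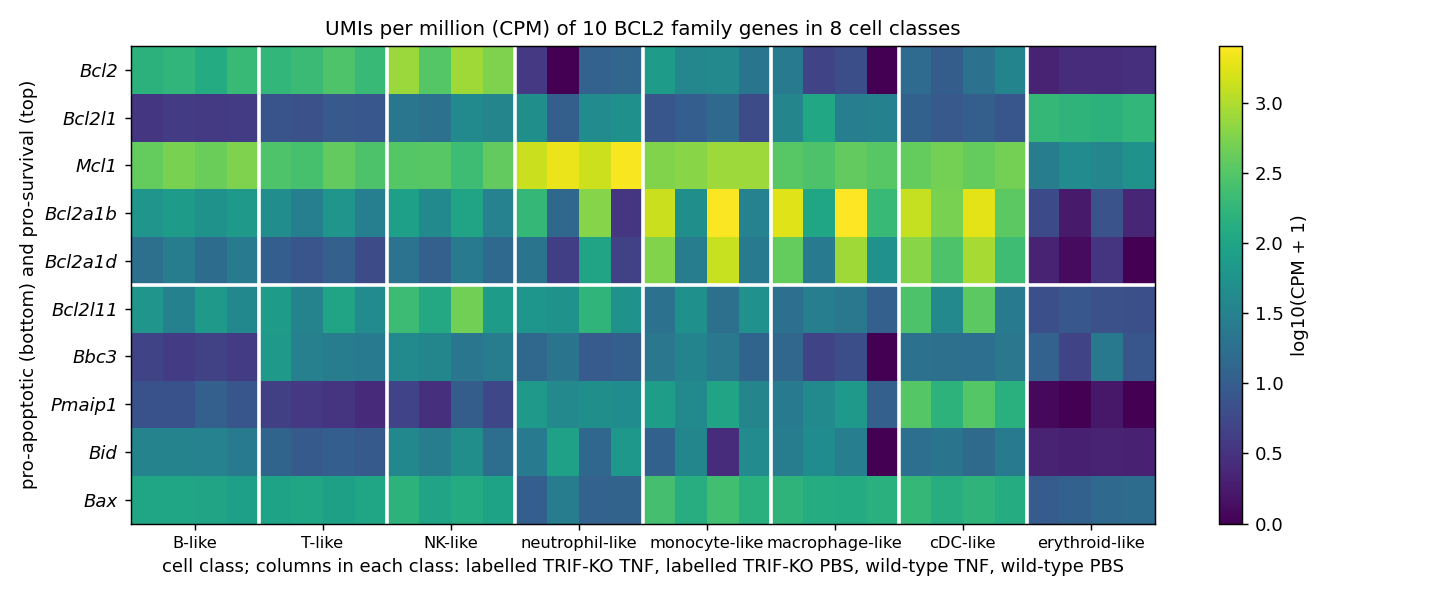
Level of the 10 genes, as log10(CPM + 1), in 8 cell classes; the 4 columns of each class are the labelled TRIF-KO TNF, labelled TRIF-KO PBS, wild-type TNF and wild-type PBS libraries. Mcl1 is bright in every class but the erythroid-like one, while Bcl2a1b and Bcl2a1d are brightest in the monocyte-like, macrophage-like and cDC-like TNF columns.

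The A1 genes gave the largest ratios, and did so in myeloid cells. In monocyte-like cells Bcl2a1b had 2096 UMIs (1373 CPM) with TNF and 51 UMIs (48.7 CPM) with PBS in the labelled TRIF-KO libraries, against 1412 UMIs (2424 CPM) with TNF and 38 UMIs (31.3 CPM) with PBS in wild type. The TNF libraries were both high and the PBS libraries both low. The log2 ratio of TNF to PBS was 4.82 (interval 4.42 to 5.25) in the labelled TRIF-KO libraries and 6.27 (5.81 to 6.78) in wild type, a difference of -1.45 (-2.06 to -0.84) that was called. Bcl2a1d in the same cells stood at 578 CPM with TNF and 26.7 CPM with PBS in the labelled TRIF-KO libraries, against 1306 CPM with TNF and 23.9 CPM with PBS in wild type. Its ratios were 4.44 and 5.77 in log2, so both copies were less raised in the labelled TRIF-KO library. The lower Bcl2a1d level after TNF (log2 -1.18, -1.32 to -1.03) was no longer called at -0.99 once cells with over 20 UMIs of neutrophil markers were left out, and its difference between responses of -1.34 then stood at -0.98. Without those cells Bcl2a1b stood at 1544 CPM with TNF and 51.5 CPM with PBS in the labelled TRIF-KO libraries. In wild type Bcl2a1b then stood at 2418 CPM with TNF and 40.1 CPM with PBS, so its ratios also lay closer together.

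In macrophage-like cells Bcl2a1b stood at 1752 CPM with TNF and 100.2 CPM with PBS in the labelled TRIF-KO libraries, against 2548 CPM with TNF and 194 CPM with PBS in wild type. In log2 the ratios were 4.13 (3.56 to 4.76) in the labelled TRIF-KO libraries and 3.71 (3.05 to 4.46) in wild type. Bcl2a1d rose alongside, with log2 ratios of 4.05 and 4.03, and after TNF it was lower in the labelled TRIF-KO library than in wild type by a log2 ratio of -1.06 (-1.38 to -0.75). The PBS values here rest on 25 and 19 UMIs of Bcl2a1b in the labelled TRIF-KO and wild-type libraries. Haemoglobin took 18.8% of the UMIs of these cells in the labelled TRIF-KO PBS library. Without cells over 5% haemoglobin UMIs, Bcl2a1b stood at 1799 and 148 CPM with TNF and PBS there, against 2716 and 197 CPM in wild type. Bcl2a1d then stood at 409 and 40.3 CPM, against 907 and 51.9 CPM. For both copies the labelled TRIF-KO ratio was then smaller than the wild-type ratio.

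cDC-like cells held A1 transcripts already with PBS. Bcl2a1b stood at 1272 CPM with TNF and 531 CPM with PBS in the labelled TRIF-KO libraries, against 1871 CPM with TNF and 349 CPM with PBS in wild type. The log2 ratio was 1.26 (1.11 to 1.41) in the labelled TRIF-KO libraries and 2.42 (2.25 to 2.60) in wild type, and the difference of -1.16 (-1.39 to -0.94) was called. With each cell weighted equally the ratio in the labelled TRIF-KO libraries was 0.92, under the threshold of 1. Bcl2a1d gave 1.15 and 2.08. Within a single cDC-like cluster, number 19, Bcl2a1b stood at 1078 CPM with TNF and 559 CPM with PBS in the labelled TRIF-KO libraries, against 1513 CPM with TNF and 542 CPM with PBS in wild type. The ratios in that cluster were smaller than in the whole class in both genotypes, 0.95 and 1.48 in log2. They also lay closer together than in the whole class, and the labelled TRIF-KO ratio was under the threshold of 1. A difference between responses was not computed for the cluster.

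Neutrophil-like cells had almost no A1 transcript with PBS. Bcl2a1b had 546 UMIs (183 CPM) with TNF and 4 UMIs (13.1 CPM) with PBS in the labelled TRIF-KO libraries, against 288 UMIs (612 CPM) with TNF and 2 UMIs (2.45 CPM) with PBS in wild type. The log2 ratios were 3.80 (2.44 to 5.68) and 7.96 (6.10 to 11.02), wide because the PBS counts were so small. After TNF alone, where counts were ample, Bcl2a1b was lower in the labelled TRIF-KO library than in wild type by a log2 ratio of -1.74 (-1.95 to -1.53), and Bcl2a1d by -2.33. The share of neutrophil-like cells with a Bcl2a1b UMI, each cell thinned to 2000 UMIs, was 26.2% with TNF and 1.21% with PBS in the labelled TRIF-KO libraries, against 51.3% with TNF and 0.602% with PBS in wild type. Unthinned shares were 45.3%, 3%, 63.9% and 1.21% in the same order of libraries. In erythroid-like cells, given for comparison, the thinned share was 0.841%, 0%, 1.09% and 0%. Haemoglobin took 77.8%, 78.8%, 73% and 71.1% of the UMIs of erythroid-like cells in the same order. A thinned erythroid-like cell thus held fewer other UMIs, and these shares may understate a background. The same haemoglobin UMIs lie in the denominator of every erythroid-like CPM.

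In lymphoid classes the A1 genes stood at or below 95.8 CPM in every library. Bcl2a1b in T-like cells stood at 46.4 CPM with TNF and 28.6 CPM with PBS in the labelled TRIF-KO libraries, against 58.5 CPM with TNF and 28.9 CPM with PBS in wild type. The wild-type ratio was called at 1.02 (0.70 to 1.34), just past the threshold, and was 0.87 with cells weighted equally. NK-like cells gave called ratios of 1.01 (0.23 to 1.83) and 1.59 (0.65 to 2.62) from 44 or fewer UMIs in any library. In B-like cells Bcl2a1b stood at 59.2 CPM with TNF and 75.3 CPM with PBS in the labelled TRIF-KO libraries, against 56.0 CPM with TNF and 69.2 CPM with PBS in wild type, and neither ratio was called. In erythroid-like cells it was called higher in both genotypes, at 4.86 and 6.55 CPM with TNF in the labelled TRIF-KO and wild-type libraries. The PBS values there rested on 3 and 5 UMIs in the labelled TRIF-KO and wild-type libraries.

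Because reads may be split between copies, the UMIs of Bcl2a1a, Bcl2a1b and Bcl2a1d were also summed. Gm29094, which shares stretches with these copies, was not in the sum. The sum can hold only reads that were assigned to a copy. In monocyte-like cells the sum stood at 2357 CPM with TNF and 95.4 CPM with PBS in the labelled TRIF-KO libraries, against 4662 CPM with TNF and 68.4 CPM with PBS in wild type, log2 ratios of 4.63 and 6.09. The summed ratios were 3.74 and 3.58 in macrophage-like cells, 1.12 and 2.26 in cDC-like cells and 3.31 and 6.80 in neutrophil-like cells, in the labelled TRIF-KO and wild-type libraries in each case. B-like cells gave -0.40 and -0.38. The sums thus kept the sign of the Bcl2a1b ratio in these 5 classes.

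**Figure D2:**
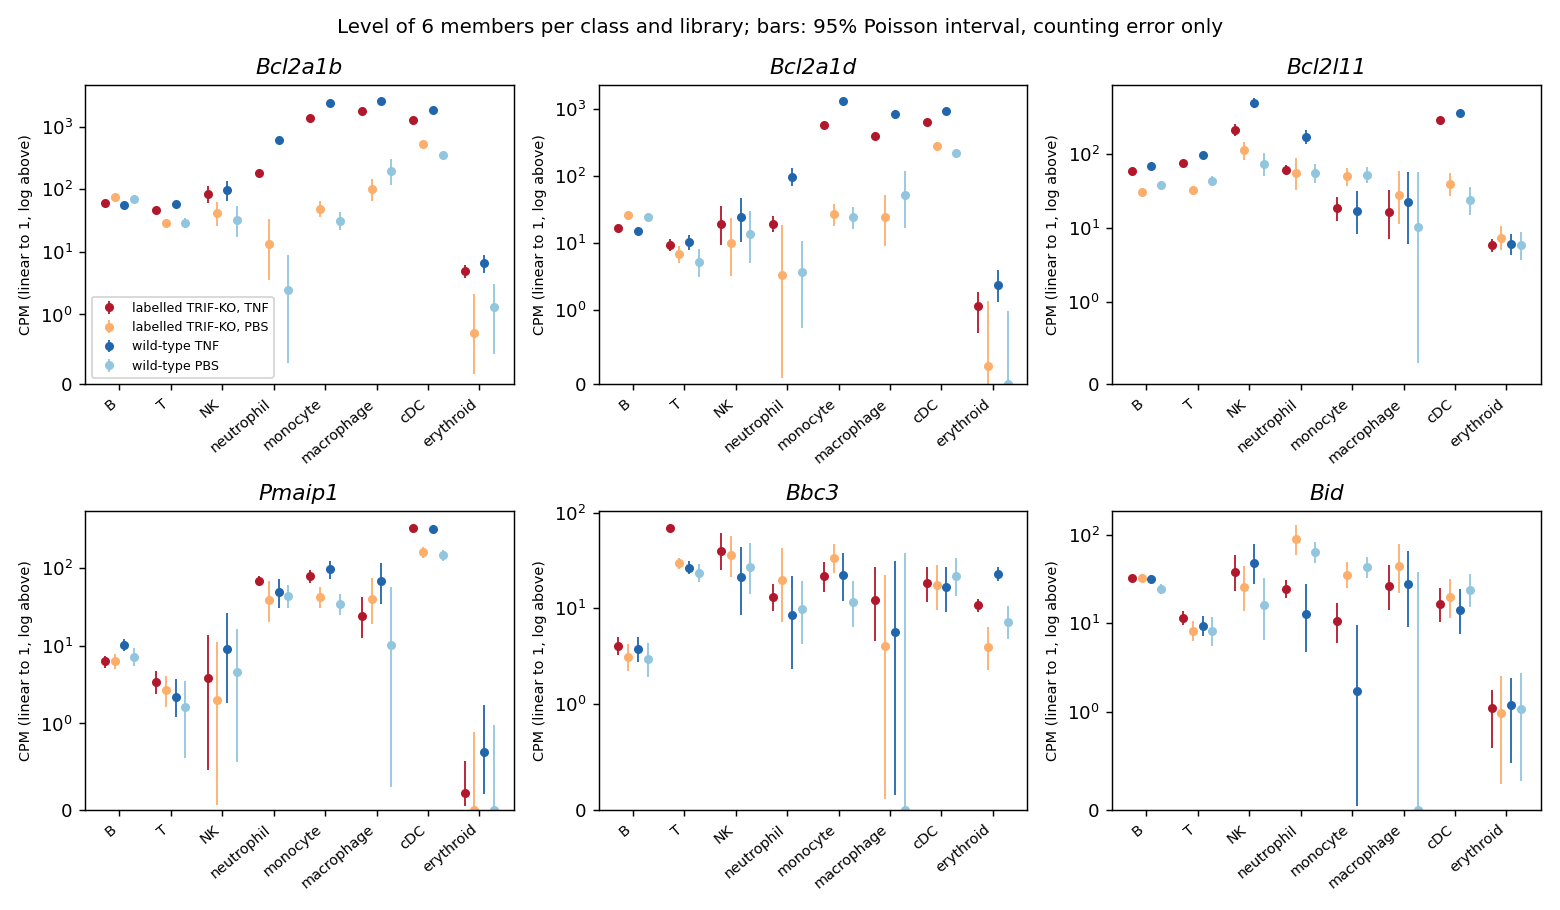
CPM of 6 of the genes in each cell class and library, on an axis that is linear up to 1 CPM and logarithmic above; points are the 4 libraries and bars are 95% Poisson intervals for counting error. Both A1 genes stand high in the TNF libraries of the monocyte-like, macrophage-like and cDC-like classes, and Bbc3 in T-like cells stands apart in the labelled TRIF-KO TNF library at 69.1 CPM.

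Mcl1, a short-lived protein whose gene is transcribed in most blood cells, had the most UMIs of the 10 genes in most classes with PBS, and was called in no class. In neutrophil-like cells it stood at 1358 CPM with TNF and 2000 CPM with PBS in the labelled TRIF-KO libraries, against 1396 CPM with TNF and 2388 CPM with PBS in wild type. The log2 ratios were -0.56 (-0.68 to -0.43) and -0.77 (-0.90 to -0.65), both under the 2-fold threshold, beside all-gene medians of -0.39 and -0.28 in that class. Monocyte-like cells held 582 CPM with TNF and 640 CPM with PBS in the labelled TRIF-KO libraries, against 805 CPM with TNF and 797 CPM with PBS in wild type. B-like cells held 398, 527, 441 and 554 CPM in the labelled TRIF-KO TNF, labelled TRIF-KO PBS, wild-type TNF and wild-type PBS libraries. Erythroid-like cells held least Mcl1, between 26.9 and 54.0 CPM.

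Bcl2, which sustains resting lymphocytes, was highest in NK-like cells. There it stood at 773 CPM with TNF and 323 CPM with PBS in the labelled TRIF-KO libraries, against 826 CPM with TNF and 560 CPM with PBS in wild type. The ratio was called in the labelled TRIF-KO libraries (log2 1.26, 0.99 to 1.53) and not in wild type (0.56, 0.31 to 0.82), and the difference of 0.69 (0.33 to 1.05) was not called. The TNF levels of the genotypes lay close together while the PBS levels lay apart. In T-like cells Bcl2 stood at 180 CPM with TNF and 211 CPM with PBS in the labelled TRIF-KO libraries, against 294 CPM with TNF and 199 CPM with PBS in wild type. These ratios had opposite signs, and neither reached 2-fold. In CD8 T-like cluster 2 alone Bcl2 stood at 187 CPM with TNF and 225 CPM with PBS in the labelled TRIF-KO libraries, against 306 CPM with TNF and 241 CPM with PBS in wild type. In regulatory T-like cells, cluster 16, the signs were the other way round, with 211 CPM with TNF and 148 CPM with PBS in the labelled TRIF-KO libraries, against 144 CPM with TNF and 209 CPM with PBS in wild type. In B-like cells Bcl2 stood at 151, 175, 123 and 200 CPM in the labelled TRIF-KO TNF, labelled TRIF-KO PBS, wild-type TNF and wild-type PBS libraries, with no ratio called. With PBS, cDC-like cells held less Bcl2 in the labelled TRIF-KO library (8 UMIs, 9.21 CPM) than in wild type (32 UMIs, 33.0 CPM), a log2 ratio of -1.84 (-3.17 to -0.70). A single cell held 12 of those 32 wild-type UMIs. The difference between responses, 1.48 (0.04 to 2.92), was called with CPM and with neither other scaling (1.24 and 1.40). The wild-type PBS cDC-like cells were also the deepest of that class, with a median of 13079 UMIs per cell against 2774 in the labelled TRIF-KO PBS library, and the part of depth in this result was not tested.

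Bcl2l1, whose product keeps late red cell precursors alive, was highest in erythroid-like cells. It stood there at 187 CPM with TNF and 163 CPM with PBS in the labelled TRIF-KO libraries, against 152 CPM with TNF and 181 CPM with PBS in wild type, and was not called. In neutrophil-like cells it had 147 UMIs (49.2 CPM) with TNF and 3 UMIs (9.84 CPM) with PBS in the labelled TRIF-KO libraries, against 20 UMIs (42.5 CPM) with TNF and 41 UMIs (50.2 CPM) with PBS in wild type. The library labelled TRIF-KO with PBS thus stood apart from the other 3, and it set a called TNF ratio of 2.32 (0.75 to 4.62) and a called genotype ratio with PBS of -2.35, and with them a difference between responses of 2.33 (0.62 to 4.04). The summed erythroid markers in these neutrophil-like cells were 11650 CPM in the labelled TRIF-KO TNF library and 1711 CPM in the labelled TRIF-KO PBS library, against 2896 and 4254 CPM in the wild-type TNF and PBS libraries. Without the 2 neutrophil-like cells with over 5% haemoglobin UMIs, both in the labelled TRIF-KO TNF library, Bcl2l1 stood at 48.1 CPM there, and the other 3 libraries were as before. In macrophage-like cells Bcl2l1 stood at 34.6 CPM with TNF and 108 CPM with PBS in the labelled TRIF-KO libraries, against 28.0 CPM with TNF and 30.7 CPM with PBS in wild type. Haemoglobin took 2.99%, 18.8%, 7.96% and 1.39% of the UMIs of these cells in the same order. Without the 9, 10, 5 and 2 cells that held over 5% haemoglobin UMIs, Bcl2l1 stood at 19.4, 20.2, 12.96 and 31.1 CPM, and neither macrophage call remained. The other classes gave no call for Bcl2l1, and B-like cells held between 2.49 and 2.94 CPM.

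Among the pro-apoptotic genes Bcl2l11, encoding BIM, responded most widely. In cDC-like cells it had 381 UMIs (287 CPM) with TNF and 34 UMIs (39.1 CPM) with PBS in the labelled TRIF-KO libraries, against 321 UMIs (352 CPM) with TNF and 23 UMIs (23.7 CPM) with PBS in wild type. The log2 ratios were 2.88 (2.37 to 3.43) and 3.89 (3.28 to 4.57), and the difference of -1.003 (-1.79 to -0.22) lay on the threshold and was lost without the cell holding most Bcl2l11 UMIs (-0.86). In cDC-like cluster 19 the ratios were 2.43 and 2.81. T-like cells held 75.1 CPM with TNF and 32.4 CPM with PBS in the labelled TRIF-KO libraries, against 97.9 CPM with TNF and 43.4 CPM with PBS in wild type, log2 ratios of 1.21 (1.01 to 1.43) and 1.17 (0.92 to 1.43). The T-like responses thus lay within each other's counting intervals.

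In NK-like cells Bcl2l11 stood at 213 CPM with TNF and 111 CPM with PBS in the labelled TRIF-KO libraries, against 485 CPM with TNF and 72.5 CPM with PBS in wild type. The wild-type ratio was called at 2.74 (2.19 to 3.34), the labelled TRIF-KO ratio of 0.94 (0.47 to 1.43) was not, and the difference was -1.79 (-2.50 to -1.08). Under both other scalings the labelled TRIF-KO ratio passed the threshold, at 1.05 and 1.06. The share of NK-like cells with a Bcl2l11 UMI after thinning was 31.5% with TNF and 19.6% with PBS in the labelled TRIF-KO libraries, against 52.2% with TNF and 10.3% with PBS in wild type, and unthinned it was 72.6%, 31.1%, 81.7% and 31.9%. Neutrophil-like cells showed the same order, with 60.9 CPM with TNF and 55.7 CPM with PBS in the labelled TRIF-KO libraries, against 170 CPM with TNF and 55.1 CPM with PBS in wild type. Only the wild-type library with TNF was high there, with a log2 ratio to PBS of 1.63 (1.08 to 2.19) and a difference between responses of -1.53 (-2.41 to -0.65).

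Monocyte-like cells went the other way. Bcl2l11 had 28 UMIs (18.3 CPM) with TNF and 52 UMIs (49.6 CPM) with PBS in the labelled TRIF-KO libraries, against 10 UMIs (17.2 CPM) with TNF and 63 UMIs (51.9 CPM) with PBS in wild type. Both ratios were called lower, at -1.44 (-2.15 to -0.75) and -1.60 (-2.73 to -0.62). The thinned shares of monocyte-like cells with a UMI, 6.59% with TNF and 6.42% with PBS in the labelled TRIF-KO libraries against 5.56% and 9.88% in wild type, lay close together. Shares of all cells without thinning were 18.7% and 32.4% in the labelled TRIF-KO TNF and PBS libraries, against 17.9% and 44.4% in wild type.

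B-like cells as a class held 58.3 CPM of Bcl2l11 with TNF and 30.7 CPM with PBS in the labelled TRIF-KO libraries, against 68.8 CPM with TNF and 37.4 CPM with PBS in wild type, and were not called. Single B-like clusters differed. In marginal zone B-like cells, cluster 4, Bcl2l11 stood at 77.9 CPM with TNF and 26.0 CPM with PBS in the labelled TRIF-KO libraries, against 127 CPM with TNF and 28.1 CPM with PBS in wild type. Their log2 ratios were 1.58 (1.16 to 2.03) and 2.18 (1.72 to 2.68). Transitional B-like cells, cluster 6, held 71.3 CPM with TNF and 21.1 CPM with PBS in the labelled TRIF-KO libraries, against 74.6 CPM with TNF and 31.5 CPM with PBS in wild type, with ratios of 1.75 and 1.24. Erythroid-like cells held between 5.82 and 7.36 CPM and were not called.

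**Figure D3:**
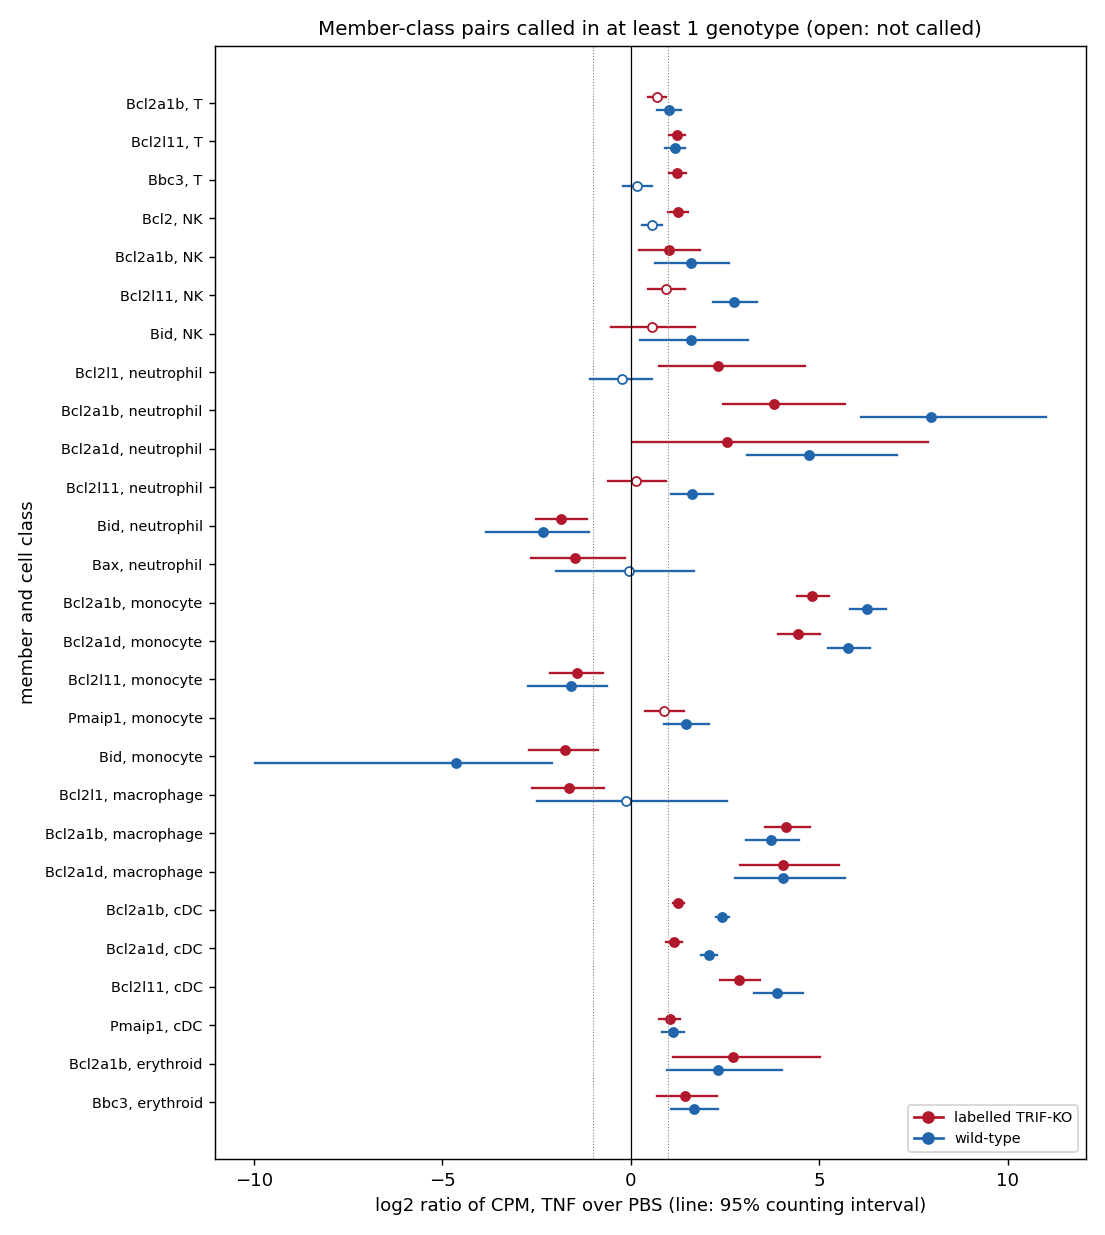
Log2 ratio of CPM, TNF over PBS, for each gene and class called in at least 1 genotype, with the labelled TRIF-KO and wild-type values as points, 95% counting intervals as lines and open points where not called. Bcl2a1b in neutrophil-like and monocyte-like cells of wild type lies farthest to the right, at 7.96 and 6.27, and Bid in neutrophil-like and monocyte-like cells lies to the left in both genotypes.

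Bbc3, encoding PUMA, gave a call that separated the genotypes in T-like cells. It had 769 UMIs (69.1 CPM) with TNF and 220 UMIs (29.4 CPM) with PBS in the labelled TRIF-KO libraries, against 168 UMIs (26.5 CPM) with TNF and 86 UMIs (23.5 CPM) with PBS in wild type. The labelled TRIF-KO TNF library alone was high. Its log2 ratio to the labelled TRIF-KO PBS library was 1.23 (1.01 to 1.45) and to the wild-type TNF library 1.38 (1.14 to 1.63). The difference between responses was 1.06 (0.63 to 1.49), and it fell under the threshold under both other scalings, to 0.84 and 0.94. After thinning, 12.1% of T-like cells had a Bbc3 UMI with TNF and 4.08% with PBS in the labelled TRIF-KO libraries, against 5.03% with TNF and 3.64% with PBS in wild type. Within CD8 T-like cells, cluster 2, Bbc3 stood at 68.6 CPM with TNF and 30.9 CPM with PBS in the labelled TRIF-KO libraries, against 31.5 CPM with TNF and 20.04 CPM with PBS in wild type. The genotype ratio with TNF in this cluster, which held 445 labelled TRIF-KO and 408 wild-type cells, was 1.12 in log2 (0.79 to 1.46). Within the cluster Bbc3 was also higher with TNF than with PBS in wild type. With PBS it was already higher in the labelled TRIF-KO library than in wild type. The difference between responses was not computed for single clusters.

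Erythroid-like cells gave called Bbc3 ratios in both genotypes, with 10.7 CPM with TNF and 3.93 CPM with PBS in the labelled TRIF-KO libraries, against 22.7 CPM with TNF and 7.15 CPM with PBS in wild type. The log2 ratios were 1.44 (0.70 to 2.28) and 1.67 (1.06 to 2.32). The genotype ratio with TNF of -1.09 was not called under the other scalings (-0.61 and -0.85), and the all-gene median of that comparison was itself -0.48. In monocyte-like cells the genotypes differed with PBS, at 33.4 CPM (35 UMIs) in the labelled TRIF-KO library against 11.5 CPM (14 UMIs) in wild type, a log2 ratio of 1.53 (0.60 to 2.54). The difference between responses there was -1.58 and was not called with each cell weighted equally (-1.15). Bbc3 in B-like cells stood between 2.94 and 4.04 CPM, and cDC-like cells held between 16.4 and 21.7 CPM.

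Pmaip1, encoding NOXA, the BH3-only protein that binds MCL1 and A1, was highest in cDC-like cells. It had 430 UMIs (324 CPM) with TNF and 138 UMIs (159 CPM) with PBS in the labelled TRIF-KO libraries, against 292 UMIs (320 CPM) with TNF and 142 UMIs (147 CPM) with PBS in wild type. The log2 ratios were 1.03 (0.75 to 1.32) and 1.13 (0.83 to 1.43), near the threshold and near each other. With each cell weighted equally the labelled TRIF-KO ratio was 0.70 and not called. Thinned shares of cDC-like cells with a Pmaip1 UMI were 44.5% with TNF and 24.8% with PBS in the labelled TRIF-KO libraries, against 42.6% with TNF and 22.0% with PBS in wild type. Monocyte-like cells held 78.0 CPM with TNF and 42.0 CPM with PBS in the labelled TRIF-KO libraries, against 96.1 CPM with TNF and 34.6 CPM with PBS in wild type, and only the wild-type ratio of 1.47 (0.87 to 2.09) was called. T-like and B-like cells stood at 10.2 CPM or below.

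Bid, the link from death receptors to mitochondria, was lower after TNF in neutrophil-like and monocyte-like cells. In both classes the TNF and PBS cells lay mainly in different clusters. In neutrophil-like cells it had 73 UMIs (24.4 CPM) with TNF and 27 UMIs (88.5 CPM) with PBS in the labelled TRIF-KO libraries, against 6 UMIs (12.8 CPM) with TNF and 52 UMIs (63.7 CPM) with PBS in wild type. These gave log2 ratios of -1.86 (-2.51 to -1.16) and -2.32 (-3.83 to -1.10). In monocyte-like cells Bid stood at 10.5 CPM (16 UMIs) with TNF and 35.3 CPM (37 UMIs) with PBS in the labelled TRIF-KO libraries, against 1.72 CPM (1 UMI) with TNF and 42.9 CPM (52 UMIs) with PBS in wild type. The ratios there were -1.75 (-2.70 to -0.87) and -4.64 (-9.97 to -2.10), the second resting on a single UMI. In NK-like cells Bid rose in wild type, to 47.9 CPM with TNF against 15.9 CPM with PBS, from 16 and 7 UMIs, and that call was lost with the gate on each cell. B-like cells held between 24.4 and 32.7 CPM of Bid with no call.

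Bax, the effector, was the steadiest pro-apoptotic gene. Monocyte-like cells held 254 CPM with TNF and 133 CPM with PBS in the labelled TRIF-KO libraries, against 235 CPM with TNF and 143 CPM with PBS in wild type, log2 ratios of 0.93 (0.65 to 1.22) and 0.71 (0.38 to 1.04) that did not reach 2-fold. T-like cells held 94.8, 99.9, 84.4 and 104 CPM in the labelled TRIF-KO TNF, labelled TRIF-KO PBS, wild-type TNF and wild-type PBS libraries. The only call was in neutrophil-like cells of the labelled TRIF-KO libraries, at 9.37 CPM (28 UMIs) with TNF and 26.2 CPM (8 UMIs) with PBS, and it did not hold with median-of-ratios scaling (-1.10, interval -2.27 to 0.24).

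Set against their class, the myeloid counts of calls compare with the background as follows. In neutrophil-like cells 3 of 9 measured members were called higher and 2 lower in the labelled TRIF-KO libraries (all genes 6.4% and 20.8%), against 3 higher and 1 lower in wild type (9.15% and 19.9%). In monocyte-like cells 2 of 9 were called higher and 2 lower in the labelled TRIF-KO libraries (10.3% and 13.1%), against 3 and 2 in wild type (8.26% and 20.8%). Macrophage-like cells had 2 of 5 called higher and 1 lower in the labelled TRIF-KO libraries (14.9% and 7.22%), against 2 and 0 in wild type (5.85% and 13.1%). cDC-like cells had 4 of 9 called higher and 0 lower in the labelled TRIF-KO libraries (4.58% and 9.43%), against 4 and 0 in wild type (6.37% and 19.5%). For neutrophil-like and monocyte-like cells the lower calls, 1 or 2 of 9, lay near the share over all genes. In B-like cells 0 of 10 members were called in either genotype. The share over all genes in B-like cells alone is not given here, so this count is not read as a trait of the members. Over all 8 classes the shares were 5.11% higher and 7.11% lower in the labelled TRIF-KO libraries, and 4.97% and 11.7% in wild type.

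Between genotypes with TNF, 1 of 67 pairs was called higher and 7 lower in the labelled TRIF-KO library than in wild type, where 2.99% and 3.21% of all pairs were called. The higher pair was Bbc3 in T-like cells. The lower pairs were Bcl2a1b in neutrophil-like cells, Bcl2a1d in neutrophil-like, monocyte-like and macrophage-like cells, Bcl2l11 in NK-like and neutrophil-like cells, and Bbc3 in erythroid-like cells. With PBS, 2 pairs were called higher and 2 lower, where 1.72% and 4.72% of all pairs were called. Of the differences between TNF responses, 3 were called higher and 8 lower in the labelled TRIF-KO libraries, where 6.39% and 3.44% of all pairs were called. The same 4 libraries enter all of these comparisons, so the counts are not independent of each other.

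The balance of the family was taken as the summed UMIs of the 5 pro-survival genes divided by those of the 5 pro-apoptotic genes, called at 1.5-fold with an interval excluding 1. It weighs a gene by its UMIs and takes no account of protein level or binding. In monocyte-like cells the ratio was 6.84 with TNF and 2.60 with PBS in the labelled TRIF-KO libraries, against 12.3 with TNF and 3.08 with PBS in wild type. It was higher with TNF 2.63-fold (2.24 to 3.09) in the labelled TRIF-KO libraries and 3.99-fold (3.31 to 4.82) in wild type. In macrophage-like cells it was 10.6 with TNF and 2.13 with PBS in the labelled TRIF-KO libraries, against 15.5 with TNF and 3.69 with PBS in wild type, folds of 4.97 (3.41 to 7.20) and 4.19 (2.07 to 8.11). These 2 of 8 classes were called higher in each genotype.

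B-like, NK-like, neutrophil-like and erythroid-like cells moved the other way in wild type. The wild-type TNF-to-PBS fold of the balance was 0.551 in B-like cells, 0.368 (0.276 to 0.488) in NK-like cells, 0.644 in neutrophil-like cells and 0.555 in erythroid-like cells, all called lower. The neutrophil-like direction rested on Mcl1: without it the fold was 12.6 (5.99 to 30.6) in the labelled TRIF-KO libraries and 8.15 (5.54 to 12.03) in wild type, called higher in both. In the labelled TRIF-KO libraries 0 classes were called lower. B-like and T-like cells there stood at folds of 0.672 and 0.711. In NK-like cells the balance was 2.68 with TNF and 2.67 with PBS in the labelled TRIF-KO libraries, against 1.77 with TNF and 4.81 with PBS in wild type. Between genotypes with TNF the balance was lower in the labelled TRIF-KO library in T-like (fold 0.609) and monocyte-like cells (0.555) and higher in NK-like (1.52) and erythroid-like cells (1.85). Neither erythroid-like value held when cells were classed by the gate. The folds were then 1.01 (0.877 to 1.15) for TNF over PBS in wild type and 0.956 (0.870 to 1.05) between genotypes with TNF. With PBS it was lower in NK-like cells (0.555) and neutrophil-like cells (0.661).

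**Figure D4:**
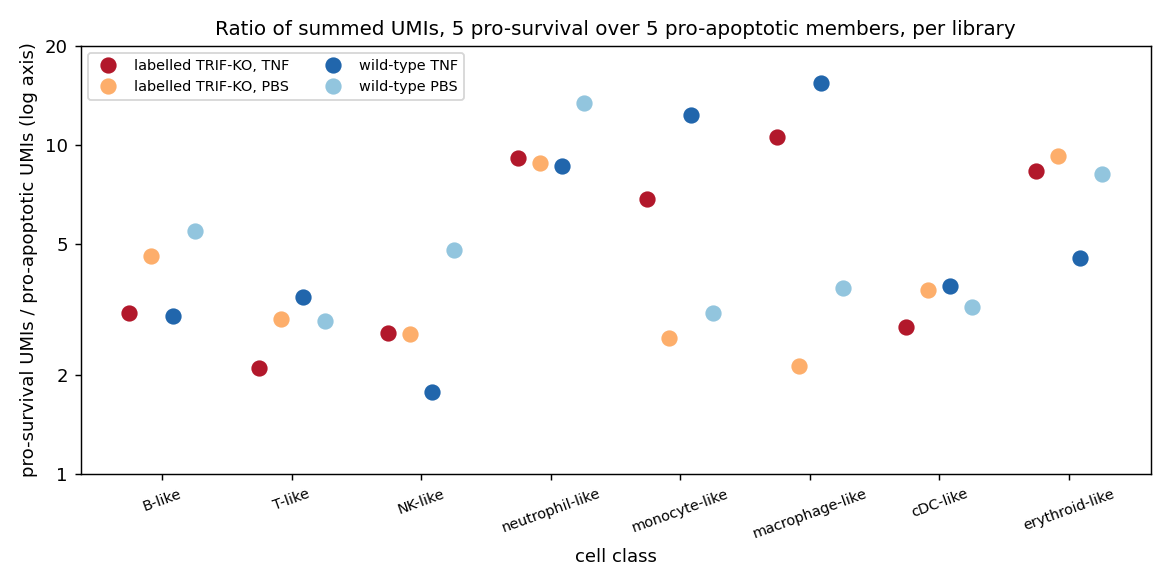
Ratio of the summed UMIs of the 5 pro-survival genes to those of the 5 pro-apoptotic genes, on a log axis, in each class and library. The TNF libraries stand above their PBS libraries in monocyte-like and macrophage-like cells, at up to 15.5, and below them in B-like cells.

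The higher balance in monocyte-like and macrophage-like cells rested on the A1 genes. Leaving out the A1 genes or Mcl1 was chosen after the values were seen, so these settings describe the make-up and are not a test. Without Bcl2a1b and Bcl2a1d, 0 classes were called higher after TNF in either genotype, and 1 was called lower in the labelled TRIF-KO libraries and 5 in wild type. The cDC-like fold was 0.365 in the labelled TRIF-KO libraries and 0.316 in wild type, called lower in both. The make-up of the pro-survival UMIs shows the same exchange. In monocyte-like cells Mcl1 gave 22.3% of them with TNF and 84.1% with PBS in the labelled TRIF-KO libraries, against 17.6% with TNF and 90.9% with PBS in wild type. Bcl2a1b gave 52.6% with TNF and 6.39% with PBS in the labelled TRIF-KO libraries, against 52.8% with TNF and 3.57% with PBS in wild type. In neutrophil-like cells Mcl1 still gave 84.2% with TNF and 98.7% with PBS in the labelled TRIF-KO libraries, against 64.7% with TNF and 97.2% with PBS in wild type. Without Mcl1, 3 classes were called higher and 1 lower in the labelled TRIF-KO libraries, against 4 higher and 3 lower in wild type.

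**Figure D5:**
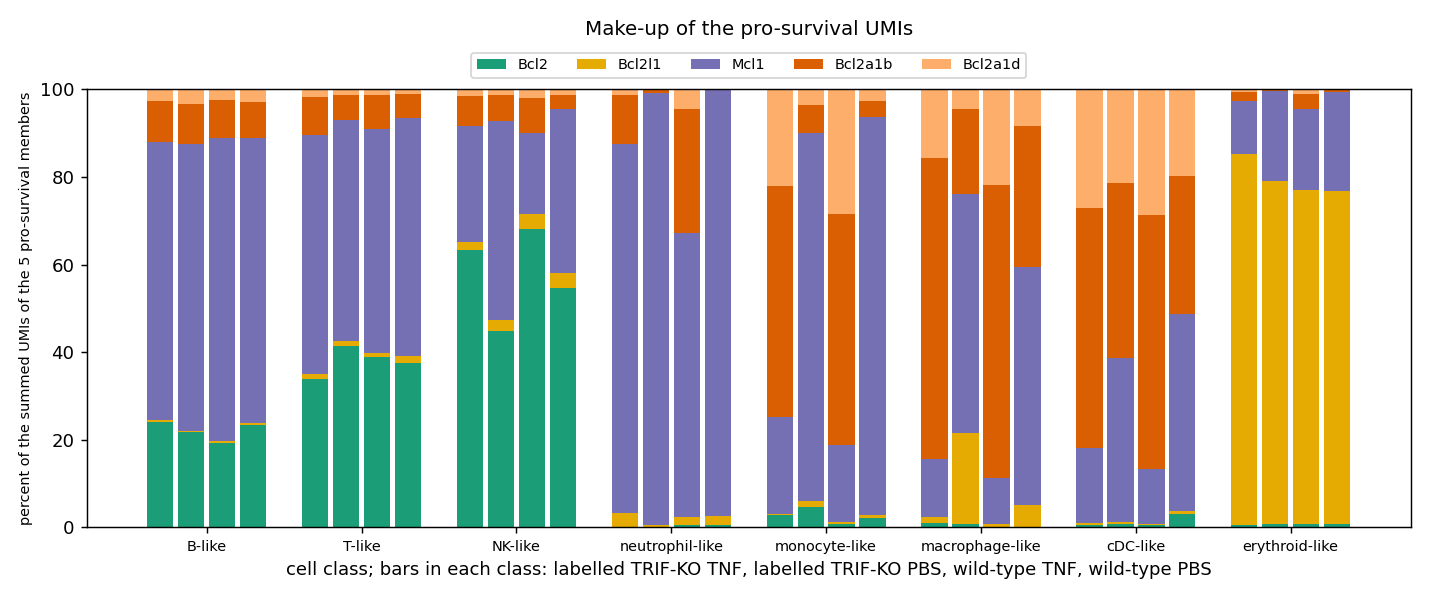
Percent of the summed pro-survival UMIs given by each of the 5 pro-survival genes, per class and library; bars of a class run from labelled TRIF-KO TNF, labelled TRIF-KO PBS and wild-type TNF to wild-type PBS. In monocyte-like cells Mcl1 gives 84.1% and 90.9% in the PBS libraries, and Bcl2a1b gives 52.6% and 52.8% in the TNF libraries.

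Related gene lists, chosen for their role, gave the following counts over the same 8 classes. After TNF, 5.11% of all measured pairs were called higher and 7.11% lower in the labelled TRIF-KO libraries, against 4.97% and 11.7% in wild type. Between genotypes with TNF, 2.99% of all pairs were called higher and 3.21% lower. Of 88 measured pairs of NF-kB target genes, 40 were called higher and 1 lower after TNF in the labelled TRIF-KO libraries, against 51 and 0 in wild type. With TNF, 0 of these pairs were higher and 15 lower in the labelled TRIF-KO library than in wild type. Genes that respond to glucocorticoids, hormones known to kill lymphocytes, had 21 of 34 pairs called higher and 0 lower in the labelled TRIF-KO libraries, against 18 and 2 in wild type. The 61 pairs of p53 target genes had 8 higher and 2 lower in the labelled TRIF-KO libraries, against 7 and 6 in wild type. Cdkn1a, the cell cycle inhibitor, stood in cDC-like cells at 67.1 CPM with TNF and 23.0 CPM with PBS in the labelled TRIF-KO libraries, against 71.2 CPM with TNF and 18.6 CPM with PBS in wild type.

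Of 44 pairs of inhibitor-of-apoptosis genes, 7 were called higher and 2 lower in the labelled TRIF-KO libraries, against 10 and 4 in wild type. Birc3, the ubiquitin ligase cIAP2, stood in T-like cells at 72.1 CPM with TNF and 27.8 CPM with PBS in the labelled TRIF-KO libraries, against 128 CPM with TNF and 27.8 CPM with PBS in wild type. Of 44 pairs of death receptor genes upstream of BID, 6 were called higher and 3 lower in the labelled TRIF-KO libraries, against 9 and 3 in wild type. Cflar, the caspase-8 inhibitor, stood in monocyte-like cells at 164 CPM with TNF and 65.8 CPM with PBS in the labelled TRIF-KO libraries, against 393 CPM with TNF and 71.7 CPM with PBS in wild type. Fas, a death receptor, stood in neutrophil-like cells at 263 CPM with TNF and 115 CPM with PBS in the labelled TRIF-KO libraries, against 395 CPM with TNF and 83.3 CPM with PBS in wild type. Genes on both sides of the pathway were thus among those called higher.

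The 66 apoptosome and caspase pairs had 4 higher and 3 lower in the labelled TRIF-KO libraries, against 4 and 8 in wild type. The 46 pairs of mitochondrial BH3-like genes and BAK or MCL1 regulators had 2 higher and 3 lower in the labelled TRIF-KO libraries, against 3 and 6 in wild type. The counts of both these lists lay near the shares over all pairs. Among the remaining BCL2 family genes, 2 of 19 pro-apoptotic pairs were called higher and 1 lower in the labelled TRIF-KO libraries, against 4 and 1 in wild type. Bcl2l14 carried a large ratio in cDC-like cells, with 264 CPM with TNF and 52.9 CPM with PBS in the labelled TRIF-KO libraries, against 213 CPM with TNF and 14.5 CPM with PBS in wild type, log2 ratios of 2.32 (1.87 to 2.79) and 3.88 (3.10 to 4.78). The 6 pairs of other pro-survival genes had 3 higher in the labelled TRIF-KO libraries and 5 in wild type, all of them Bcl2a1a, which in monocyte-like cells gave log2 ratios of 4.34 and 6.14.

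Likeness of pattern was measured as Pearson's r of log2(CPM + 10) over the 32 class and library combinations, among 6662 genes reaching 50 CPM somewhere, as a description without a p. These combinations share libraries and depth. Bcl2a1b was most like Bcl2a1d (r = 0.963), Nfkbie (0.911) and Bcl2a1a (0.908). Bcl2l11 was most like Gadd45g (0.825), Coq10b (0.822) and Nub1 (0.768). Bcl2 was most like Gimap8 (0.947), Gimap4 (0.935) and Gimap5 (0.934), and Pmaip1 was most like Tbc1d8 (0.955). Mcl1 was most like Tbc1d23 (0.952), Bax most like Ndufc1 (0.972), Bcl2l1 most like Fbxo30 (0.916) and Bid most like Ap1m1 (0.836). Bbc3 had the lowest best match of the 10 genes, Prkch at 0.764.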

How the data were processed

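Per the labels' protocols and the file headers, the authors deposited raw UMI counts per gene and cell barcode of 4 10x Genomics libraries, with no normalisation. The matrix header names Cell Ranger 6.0.1, while the submitters' processing notes name Cell Ranger 3.0, Seurat 4.1.1 and build mm10. Cells with fewer than 200 genes or with mitochondrial UMIs above 10% were dropped, and the highest Scrublet scores, 0.8% per 1000 barcodes, were removed as doublets. Cells were clustered with scanpy 1.11.5 and leidenalg 0.10.2 (2000 variable genes, 30 components, 15 neighbours, resolution 1). Clusters were named from marker lists that hold no family member, and clusters without clear markers stayed unnamed. UMIs were summed per class and library and divided by the class total to give CPM. Ratio intervals are exact and conditional on the sum of both counts (scipy 1.17.1), while the interval of a difference between responses is a normal approximation with 0.5 added to each count. With 1 library per group no test was possible, and no p-value is given. The scripts were tested on simulated data. Shares of cells with a UMI have exact Clopper-Pearson intervals at 95% and were thinned to 2000 UMIs per cell, shallower cells being left out. In the macrophage-like class this left out 191, 94, 94 and 37 of the 244, 115, 115 and 52 cells of the labelled TRIF-KO TNF, labelled TRIF-KO PBS, wild-type TNF and wild-type PBS libraries. All 10 members were described in every class. Of each other list up to 2 called genes per direction and class qualified to be named, ranked by the interval bound nearest to 1, and those printed are a selection of them. Members, lists and comparisons were chosen with earlier results of these data known. Plasma-like, pDC-like and platelet-like cells and 3 unnamed clusters were not compared. Alternatives were other scalings, equal weight per cell, a gate on each cell, a 5% mitochondrial limit, doublets kept, other gene filters and thinned class totals.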

Additional observations from a re-analysis of the deposited data

Results flagged for a closer look

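A pair of results stood out because their TNF-to-PBS ratios had opposite signs in the genotypes. The replicate spread was not available, so the differences carry counting intervals only and were not tested between animals.

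Bcl2 in T-like cells had a log2 ratio of -0.23 in the labelled TRIF-KO libraries and 0.57 in wild type, a difference of -0.80 (-0.95 to -0.64). With median-of-ratios scaling the difference was -1.01. In CD8 T-like cluster 2 the ratios kept these signs, -0.26 and 0.35, and in regulatory T-like cluster 16 they were reversed, 0.52 and -0.55.

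Bcl2l1 in erythroid-like cells had a log2 ratio of 0.20 in the labelled TRIF-KO libraries and -0.25 in wild type, a difference of 0.45 (0.26 to 0.63). Neither ratio reached 2-fold.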

How the results depend on the processing

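No paired analysis was possible because each group was 1 library and no replicate numbers exist. Over 12 alternatives, of which 2 (leaving out cells rich in haemoglobin or in neutrophil markers) were chosen after seeing the data, the number of pairs called higher after TNF ran between 15 and 20 in the labelled TRIF-KO libraries and between 16 and 23 in wild type, and the pairs lower in the labelled TRIF-KO library with TNF between 6 and 10. Small counts moved more. Differences called higher, 3 as reported, were 1 under median-of-ratios scaling and 1 with CPM computed after dropping immunoglobulin, haemoglobin, ribosomal protein and mitochondrial genes, and those called lower, 8 as reported, were 5 with thinned class totals. Pairs called lower after TNF, 3 in wild type, were 5 with cells weighted equally, and the 5 in the labelled TRIF-KO libraries were 3 with the gate on each cell, 2 with the stricter gene filter (100 UMIs and 50 CPM) and 3 with thinned totals. With PBS, the 2 pairs higher in the labelled TRIF-KO library were 6 with the gate, 5 with doublets kept, 1 without the cell with most UMIs, 1 without haemoglobin-rich cells, 0 with the stricter filter and 1 with thinned totals, and the 2 lower pairs were 4 with the gate and 1 with the stricter filter. With TNF, the 1 higher pair became 4 with a 5% mitochondrial limit, 2 with doublets kept, 3 without the cell with most UMIs and 2 with thinned totals. The balance was called higher in 2 classes in the labelled TRIF-KO libraries throughout, and in 1 class in wild type with the gate. The gate held 0 cDC-like cells in both TNF libraries and so gave no cDC-like value. Bcl2l1 in macrophage-like cells, labelled TRIF-KO against wild type with PBS, was 1.82 as reported. It was -1.19 (-2.89 to 1.17) with cells weighted equally and -0.63 (-3.53 to 2.28) without haemoglobin-rich cells, a changed sign with intervals that include 0. With the gate, the erythroid-like balance fold was 1.01 for TNF against PBS in wild type. It was 0.956 for labelled TRIF-KO against wild type with TNF, and both gate intervals included 1. Beyond the haemoglobin values given in the report, the cause was not tested. Depth limits the A1 genes and Bax in neutrophil-like PBS cells, with 1 to 9 UMIs in a library, and Bid in monocyte-like cells of the wild-type TNF library, with 1 UMI.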

Other observations

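Cluster 14, which stayed unnamed because its leading genes mixed T and NK markers, lay outside the classes compared. Bcl2l11 stood there at 137 CPM with TNF and 37.0 CPM with PBS in the labelled TRIF-KO libraries, against 204 CPM with TNF and 93.6 CPM with PBS in wild type. Bcl2a1b stood at 110 CPM with TNF and 45.5 CPM with PBS in the labelled TRIF-KO libraries, against 125 CPM with TNF and 29.5 CPM with PBS in wild type. Both genes were thus higher in each TNF library than in its PBS library. Bcl2 stood at 590, 404, 561 and 419 CPM in the labelled TRIF-KO TNF, labelled TRIF-KO PBS, wild-type TNF and wild-type PBS libraries.

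A B-like cluster without a finer name, number 5, held Bcl2a1b at 152 CPM with TNF and 248 CPM with PBS in the labelled TRIF-KO libraries, against 149 CPM with TNF and 270 CPM with PBS in wild type. In regulatory T-like cluster 16 Bcl2a1b ran the other way, at 225 CPM with TNF and 130 CPM with PBS in the labelled TRIF-KO libraries, against 229 CPM with TNF and 134 CPM with PBS in wild type. These clusters were picked for mention after their values were seen.

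Bmf, another BH3-only gene that was not among the 10, stood in monocyte-like cells at 9.83 CPM with TNF and 43.9 CPM with PBS in the labelled TRIF-KO libraries, against 6.87 CPM with TNF and 16.5 CPM with PBS in wild type. In B-like cells it stood at 12.8 CPM with TNF and 11.05 CPM with PBS in the labelled TRIF-KO libraries, against 20.3 CPM with TNF and 6.59 CPM with PBS in wild type. The call in monocyte-like cells was in the labelled TRIF-KO libraries and that in B-like cells in wild type.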
